A study of Danio rerio with 3 samples.

Results

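Keratin, claudin and desmosome genes, together with epcam, were followed along the embryonic heart of the zebrafish, 2 days after fertilization. Members were the gene rows whose zebrafish name, or whose human-match name, begins with krt, cldn, dsp, dsc, dsg or pkp, plus epcam and cdh1, and that held at least 10 reads over the 3 hearts. Of 79 matching names, 45 reached that minimum, out of 13835 gene rows with at least 10 reads and 15833 with at least 1 read. Of the 45, 41 belong to the families by name: 13 keratins, 18 claudins, 9 desmosome genes and epcam. The other 4, KRTCAP2, DSCC1, DSCAM and CLDND1, share only the first letters of the name and were left out of every count below. Names in capitals are those of the human match. Of the 34 names under the minimum, 6 had 1 to 9 reads and 28 had none. The gene cdh1, which encodes E-cadherin, had no row in the tables used here.

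Keratins build the intermediate filaments of epithelia, and a type I keratin always pairs with a type II keratin. The pair of keratin 8 and keratin 18 is typical of simple, single-layered epithelia, whereas other keratins mark the stratified skin and its outer layer, the periderm. Claudins form the strands of tight junctions that seal neighbouring cells to each other. Desmosomes anchor keratin filaments at the cell border: desmogleins and desmocollins bridge the gap between cells, plakophilins and desmoplakin tie them to the filaments. The heart wall itself is made of cardiomyocytes and endocardium, with an epithelial epicardium that spreads over it from the proepicardium near the venous pole, and it is continuous at both poles with the lining of the pericardial cavity.

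Tomo-seq was used, in which a tissue is cut into consecutive 10 µm cryosections and each section is barcoded and sequenced from the 3′ end of its transcripts. The 3 samples were single hearts of wild-type Tupfel long fin embryos, untreated, dissected by hand, at 48 hours post fertilization, and labelled as embryonic heart. The study's text places non-myocardial tissue of the arterial pole in the first sections of heart 1 and proepicardial cells in the sinoatrial region. No group of another genotype or treatment was analysed, so the comparison is between positions within a heart. Hearts 1, 2 and 3 gave 40, 48 and 29 sections with 5889097, 5243516 and 2590278 gene reads. Levels are reads per 10000 gene reads of the sections summed in a region. Hearts 2 and 3 were placed on the section scale of heart 1 by the positions of vmhc and myh6, the ventricular and atrial myosin heavy chains. The arterial end then comprised positions up to 11, the venous end positions from 33 on, and the middle positions 12 to 32, with ventricle, atrioventricular (AV) canal and atrium proper.

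The ends did not hold equal material in the 3 hearts. The arterial end held 29.2%, 76.1% and 0.568% of the reads of hearts 1, 2 and 3. In heart 3 that was 14700 reads with no section of 10000 or more, so a gene at 0 there could still have a level of up to 2.04 per 10000 (a floor of 3 reads). A panel of 11 cardiac sarcomere genes, which marks heart muscle, summed to 19.7, 6.64 and 469 per 10000 at the arterial end, 197, 56.6 and 36.4 at the venous end, and 324, 322 and 481 in the middle of hearts 1, 2 and 3. The arterial end of heart 3 thus had the muscle gene level of its own middle, unlike those of hearts 1 and 2. Results at the arterial end are therefore given for hearts 1 and 2 with heart 3 beside them. In such summed sections, more cells of a type and more RNA per cell cannot be told apart.

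The keratins krt8, krt18a.1 and krt94 had reads in all regions of the middle in every heart. The keratin krt18b, the second keratin 18 gene, was sparser, with no read in the middle of heart 3. The summed level of these 4 was 41.7, 32.4 and 76.2 per 10000 at the arterial end, 40.1, 154 and 97.6 at the venous end, and 22.6, 21.3 and 19.9 in the middle of hearts 1, 2 and 3. Every heart was higher at each end than in its own middle, where the arterial value of heart 3 comes from krt94 alone. The 3 middles lay within a narrow range (21.3 ± 1.38, SD, n = 3), while the venous ends spread widely (97.1 ± 56.8, SD, n = 3). This set of 4 was put together after the values of krt18b and krt94 were seen.

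Keratin 8 (krt8, ENSDARG00000058358), the type II member of the simple epithelial pair and the keratin with most reads, had 20.1, 94.8 and 49.8 reads per 10000 at the venous end, against 10.8, 10.4 and 9.94 in the middle of hearts 1, 2 and 3. The 3 venous ends were all above the 3 middles without overlap. The venous end over middle ratio was 1.86 in heart 1 (95% counting interval 1.72 to 2.01), 9.11 in heart 2 (8.46 to 9.82) and 5.01 in heart 3 (4.69 to 5.34). The hearts thus differed in the size of the step by far more than counting error, and heart 1 had the smallest. These intervals, like all others here, cover counting error only, since reads can be copies of one molecule.

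Within the middle, krt8 did not follow a single chamber. Its levels were 12.2, 9.62 and 9.67 per 10000 in the ventricle, 9.53, 11.2 and 7.95 in the AV canal, and 12.4, 11.2 and 18.2 in the atrium proper of hearts 1, 2 and 3. The values of the 3 regions overlap. At the arterial end krt8 stood at 22.8 and 18.4 per 10000 in hearts 1 and 2, and at 0 of 14700 reads in heart 3.

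Section by section, the high venous level of krt8 in heart 2 was carried by the whole end. Its 11 venous sections with at least 10000 reads ranged from 27.3 over a median of 98.7 to 147 per 10000, against 0, 8.78 and 22 for the lowest, median and highest of 20 sections in the middle. All 11 were above every section of the middle. In heart 1 the 4 venous sections ranged from 0 over 8.71 to 40.2 per 10000, against 0, 9.44 and 25.9 in 21 sections of the middle, so that the ranges overlap and the single highest section set the difference. In heart 3 the 4 venous sections ranged from 0 over 25.6 to 50.3 per 10000, against 0, 8.61 and 70.7 in 12 sections of the middle, and these ranges overlap as well.

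Keratin 18 (krt18a.1, ENSDARG00000018404), the type I partner of krt8, had 11.2, 35.2 and 32 reads per 10000 at the venous end, against 4.07, 4.74 and 2.45 in the middle of hearts 1, 2 and 3. Here too the venous ends lay above all the middles, with the lowest value again in heart 1. The venous end over middle ratio was 2.76 (2.48 to 3.08), 7.42 (6.64 to 8.31) and 13.1 (11.8 to 14.5). In heart 3 all 4 venous sections, from 20.1 to 55 per 10000, were above the highest of the 12 sections of the middle at 5.18. At the arterial end krt18a.1 had 8.09 and 12 per 10000 in hearts 1 and 2, higher than in the middle in both, and 0 reads in heart 3.

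The gene krt18b is singled out here after its values were seen. It had 0.856, 5.59 and 1.6 reads per 10000 at the venous end, against 0.0661, 0.299 and 0 in the middle. The ratio was 13 in heart 1 (7.48 to 22.7) and 18.7 in heart 2 (12.4 to 29.5). In heart 3 the venous end held 51 reads, all in 1 section, and the middle none, which makes it at least 120-fold higher when the middle is set to a floor of 3 reads. At the arterial end krt18b had 0.86 and 0.384 per 10000 in hearts 1 and 2 and 0 reads in heart 3.

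The keratin krt94 (ENSDARG00000044975) differed from the other 3. It had 7.89, 18.1 and 14.2 reads per 10000 at the venous end, against 7.68, 5.87 and 7.51 in the middle, so in heart 1 the difference was within counting error (ratio 1.03, 0.91 to 1.16). At the arterial end it had 9.86, 1.69 and 76.2 per 10000. The highest of these, in heart 3, came from 112 of 14700 reads. In heart 2 krt94 was lower at the arterial end than in the middle, unlike krt8 and krt18a.1.

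**Figure D1:**
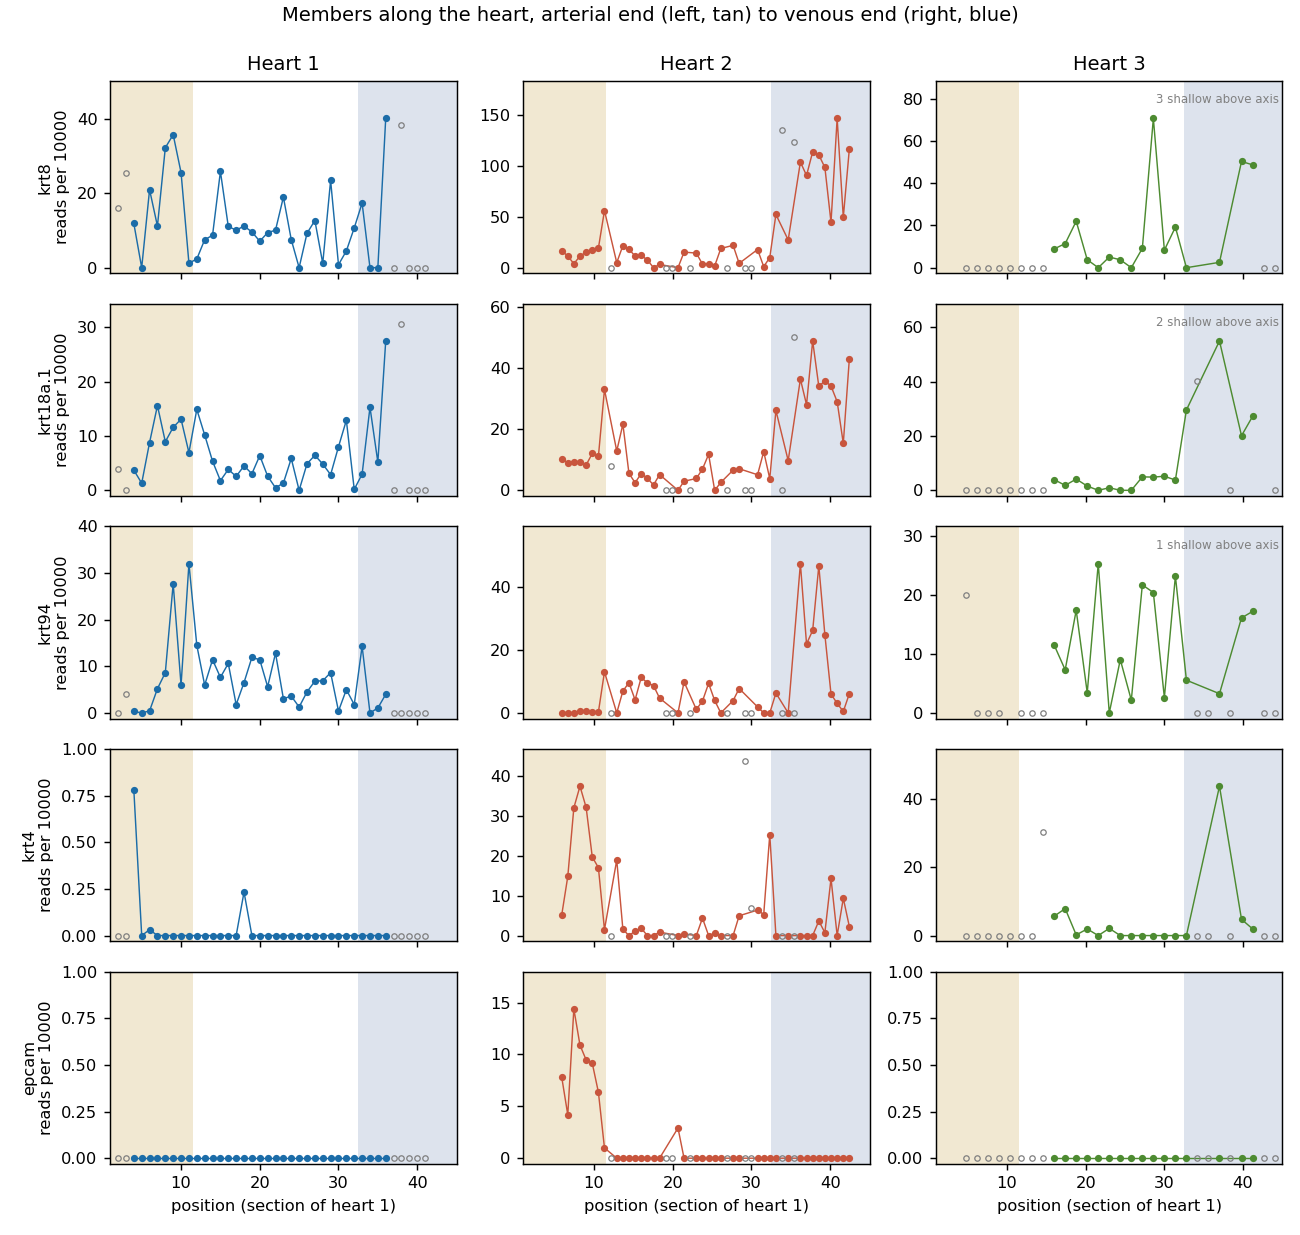
Reads per 10000 gene reads of krt8, krt18a.1, krt94, krt4 and epcam in each section of the 3 hearts, plotted against position on the section scale of heart 1, with the arterial end shaded tan and the venous end shaded blue. Filled points joined by lines are sections with at least 10000 gene reads, open grey points are shallower ones (points beyond an axis are counted in its corner) and each panel has its own linear scale; in heart 2 krt8 reaches 147 at the venous end against at most 22 in the middle, and epcam is confined to the arterial end except for 3 reads in a single section of the middle.

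The pair did not track each other equally from section to section. Across sections with at least 10000 reads, Spearman's rho between krt8 and krt18a.1 was 0.06 in heart 1 (33 sections), 0.71 in heart 2 (39 sections) and 0.33 in heart 3 (16 sections). The sections of a heart share its dissection, pooled library and depth profile, so these values are descriptions. Pearson's r was 0.33, 0.87 and 0.09, so both measures were highest in heart 2, and the order of hearts 1 and 3 turned with the measure.

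A second group of keratins peaked in the arterial sections of heart 2, and was lower in heart 3 and nearly absent from heart 1. Summed over the 9 keratins other than the 4 above, the level was 0.43, 41.0 and 0.68 per 10000 at the arterial end, 1.58, 3.17 and 9.28 at the venous end, and 0.0106, 2.59 and 2.41 in the middle of hearts 1, 2 and 3. The high arterial value is that of heart 2 alone, and in heart 3 the group was higher at the venous end and in the ventricle (9.8 per 10000) than in the AV canal (1.79).

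Keratin 4 (krt4, ENSDARG00000017624), a type II keratin of the zebrafish periderm, led this group. It had 0.244, 23.7 and 0 reads per 10000 at the arterial end, 0, 2.13 and 5.99 at the venous end, and 0.00793, 1.66 and 1.82 in the middle. In hearts 1 and 2 the arterial end was above the middle, with ratios of 30.8 (9.84 to 155, from 42 and 3 reads) and 14.3 (12.1 to 17), although the levels of heart 1 were far below those of heart 2. In the 8 arterial sections of heart 2, krt4 ranged from 1.5 over a median of 18.4 to 37.4 per 10000, and 97.6% of its 9668 reads in that heart lay there. In heart 3 it had 172 reads in the ventricle (7.66 per 10000), 239 in the AV canal (1.46) and 191 at the venous end (5.99), where 3 of 4 sections held it and the highest was at 43.8 per 10000.

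Other keratins of this group had reads at the arterial end of heart 2 and few elsewhere. The keratin krt92 had 6.96 reads per 10000 there, against 0.0955 in the middle (ratio 72.9, 36.9 to 169), with 0 reads in heart 1 and 35 reads in heart 3. The next members were chosen after their values were seen. The type I keratin krt1-19d had 5.9 per 10000 at the arterial end of heart 2, against 0.466 in its middle, and no read in hearts 1 and 3. The keratin krt91 had 0.0988, 4.17 and 0.68 per 10000 at the arterial end, against 0, 0.251 and 0.253 in the middle. It was the single member higher at the arterial end in all 3 hearts, where heart 3 contributed a single read. In heart 1, however, 78.2% of its 78 reads lay at the venous end. That was 61 reads against 0 in the middle, at least 200-fold higher with a floor of 3 reads. Only 2 of the 33 sections of heart 1 with at least 10000 reads held krt91, the higher of them arterial at 0.623 per 10000. Most of the 61 reads thus lay in venous sections under 10000 reads, so this ratio is uncertain. The venous end of heart 3 had 24 reads (ratio 2.98, 1.77 to 4.88), and that of heart 2 had 0.

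The keratins krt5, krt15 and krt17 had few reads. In zebrafish and mammals krt5 is the type II keratin of basal epidermis, and it had 5, 57 and 28 reads in hearts 1, 2 and 3. The type I keratins krt15 and krt17 had 18 and 17 reads in all. The keratins krt97 and krt1-19e had 109 and 44 reads in all, and at the venous end of heart 3 they had 1.63 and 0.595 per 10000, against 0 and 0.0975 in its middle. At these depths differences between regions of krt5, krt15 and krt17 rest on a few reads each.

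Epcam (ENSDARG00000040534), an adhesion molecule of epithelial cells, had nearly all its reads in a single region of a single heart. It had 0, 7.84 and 0 reads per 10000 at the arterial end, 0 in all 3 venous ends, and 0, 0.0358 and 0 in the middle of hearts 1, 2 and 3. Of its 3131 reads in heart 2, 3128 lay in the arterial end, where all 8 sections held it at 0.989 to 14.4 per 10000. The ratio of 219 rests on 3 reads in the middle and has a counting interval of 74.8 to 1060. With 0 reads, heart 1 allows up to 0.0174 per 10000 at its arterial end. Epcam thus differed between the hearts as well as between regions.

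The arterial end of heart 2 depends on where heart 2 is placed. With the positions of vmhc and myh6 weighted by raw reads in place of reads per 10000, a choice added after the data were seen, the arterial end of heart 2 shrinks to 1 section with 158991 reads. Under that placement krt4 had 5.03 per 10000 at the arterial end and 20.4 in the middle of heart 2, and epcam had 7.86 and 6.44. The sections are the same in both cases: the last 8 of heart 2, at the outflow side of the row of sections, hold the reads of this group.

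**Figure D2:**
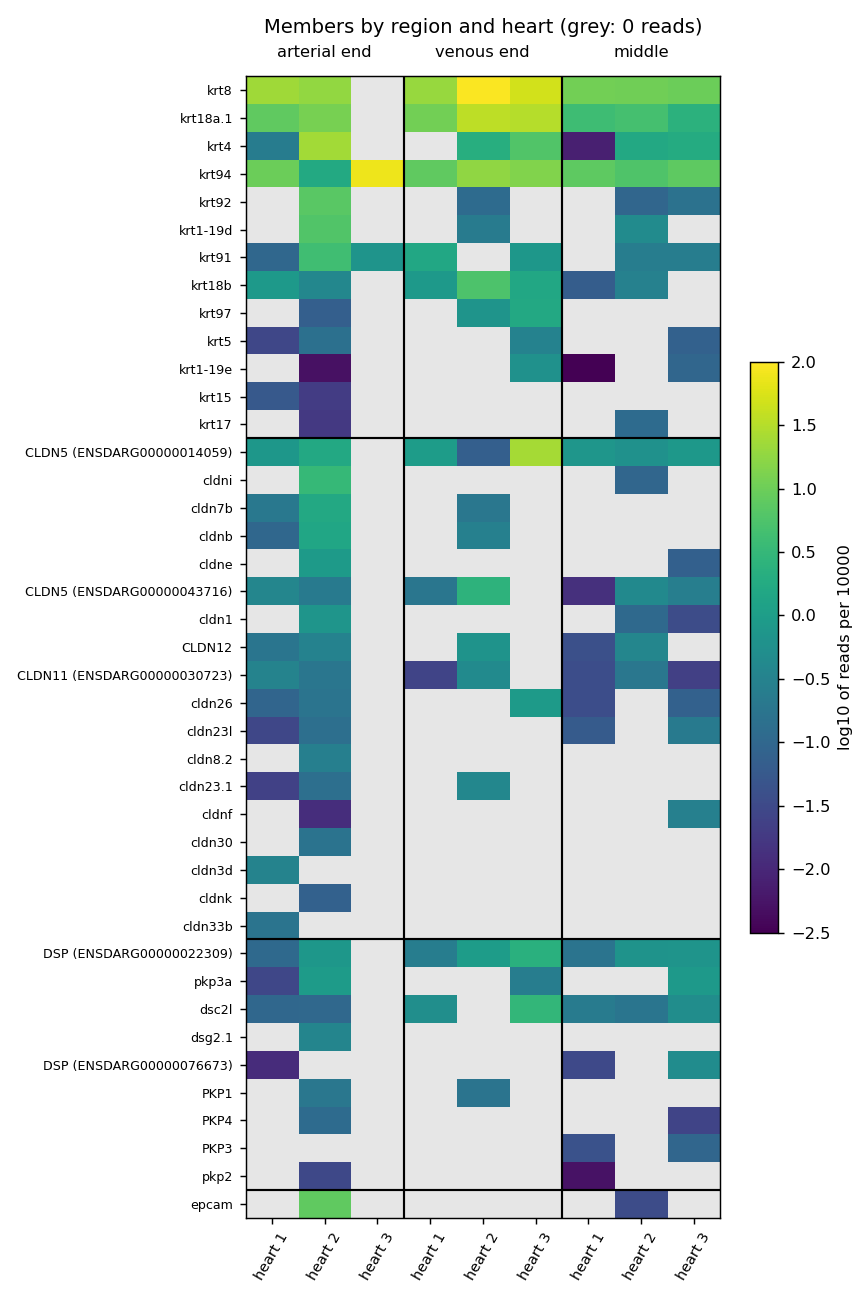
Levels of the 41 keratin, claudin and desmosome genes and epcam (rows, ordered by class and total reads) at the arterial end, the venous end and in the middle of hearts 1 to 3 (columns), coloured by log10 of reads per 10000, with grey for 0 reads. The venous columns are bright for krt8 (20.1, 94.8 and 49.8) and krt18a.1 in all 3 hearts, whereas most claudins have reads mainly in the arterial column of heart 2.

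Among claudins, the most read row was one of 2 matched to CLDN5 (ENSDARG00000014059), a claudin of endothelial tight junctions. It had 0.756, 1.67 and 0 reads per 10000 at the arterial end, 0.986, 0.0719 and 24.4 at the venous end, and 0.745, 0.597 and 0.78 in the middle of hearts 1, 2 and 3. One value stands apart, the venous end of heart 3, with 777 reads and a ratio of 31.2 to its middle (26.5 to 37). A panel of 9 endothelial and endocardial genes was also highest there, at 8.98, 1.2 and 36.5 per 10000 at the venous end, against 5.64, 6.48 and 8.96 in the middle. Of the 36.5 in heart 3, cdh5 made up 23.4. At the arterial end the panel had 5.56, 3.96 and 6.12 per 10000. In heart 2 it was thus lower at the arterial end than in the middle, whereas the CLDN5 row was higher. The part of the panel's cells in the CLDN5 level was not tested. Under narrower windows that end the venous region at position 39, the summed claudin ratio of heart 3 was 0 in place of 14.3.

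The other CLDN5 row (ENSDARG00000043716) did not share that pattern. It had 0.366, 0.228 and 0 per 10000 at the arterial end, 0.182, 2.57 and 0 at the venous end, and 0.0132, 0.43 and 0.261 in the middle. Its highest value was the venous end of heart 2, where the first row was near 0. Reads of near-identical copies may be split between such rows, so their separate levels are uncertain.

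The remaining 16 claudins were seen mainly at the arterial end of heart 2. Their sum was 1.44, 9.37 and 0 per 10000 at the arterial end, 0.026, 1.97 and 0.909 at the venous end, and 0.174, 0.764 and 0.722 in the middle. Hearts 1 and 2 were both higher at the arterial end than in the middle, and heart 3 had no read there.

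Among them, cldn7b (ENSDARG00000014047), of a claudin type found in many epithelia, had 0.203, 1.62 and 0 reads per 10000 at the arterial end and no read in the middle of any heart. Against a floor of 3 reads in the middle, it was at least 25.7-fold higher in heart 1 and at least 45.1-fold higher in heart 2. The claudin cldnb (ENSDARG00000009544), known from the zebrafish lateral line primordium, had 0.0988, 1.46 and 0 per 10000 at the arterial end, with no read in any middle, at least 12.5-fold and 40.7-fold higher in hearts 1 and 2. Both also had a few reads at the venous end of heart 2, at 0.192 and 0.288 per 10000. Other claudins with reads at the arterial end of both hearts 1 and 2 were CLDN12, CLDN11, cldn23.1, cldn26 and cldn23l, at 0.0233 to 0.326 per 10000.

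The claudins cldni and cldne were seen in the arterial end of heart 2 but not of heart 1. The first had 3.24 per 10000 there, against 0.0955 in its middle (ratio 33.9, 17.1 to 78.6), and no read in hearts 1 and 3. The second had 0.885 per 10000 there and none in its middle, and 17 reads in the middle of heart 3. Conversely cldn3d and cldn33b, chosen after their values were seen, had 55 and 29 reads, all at the arterial end of heart 1.

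The other 10 claudins had 32 to 295 reads in all. Those with most were cldn1, a claudin of epidermal barriers, with 0, 287 and 8 reads in hearts 1, 2 and 3, CLDN12 with 45, 183 and 0, and CLDN11, a claudin of myelin and Sertoli cells in mammals, with 71, 110 and 5. In heart 2 cldn1 had 0.697 reads per 10000 at the arterial end and none at the venous end, against 0.107 in the middle, whereas CLDN12 had 0.313 and 0.647, against 0.37. At the other extreme cldn8.2, cldn30 and cldnk had 111, 65 and 32 reads, all at the arterial end of heart 2.

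Across sections, cldnb and cldn7b had a Spearman's rho of 0.8 in heart 2 (39 sections), while krt4 and epcam had 0.53 and krt4 and krt92 had 0.63 in heart 2. For krt4 and krt8 rho was 0.23, -0.2 and 0.21 in hearts 1, 2 and 3. The rho of krt4 with epcam and krt92 was thus above that with krt8 in heart 2, in sections that share a library and its depth.

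**Figure D3:**
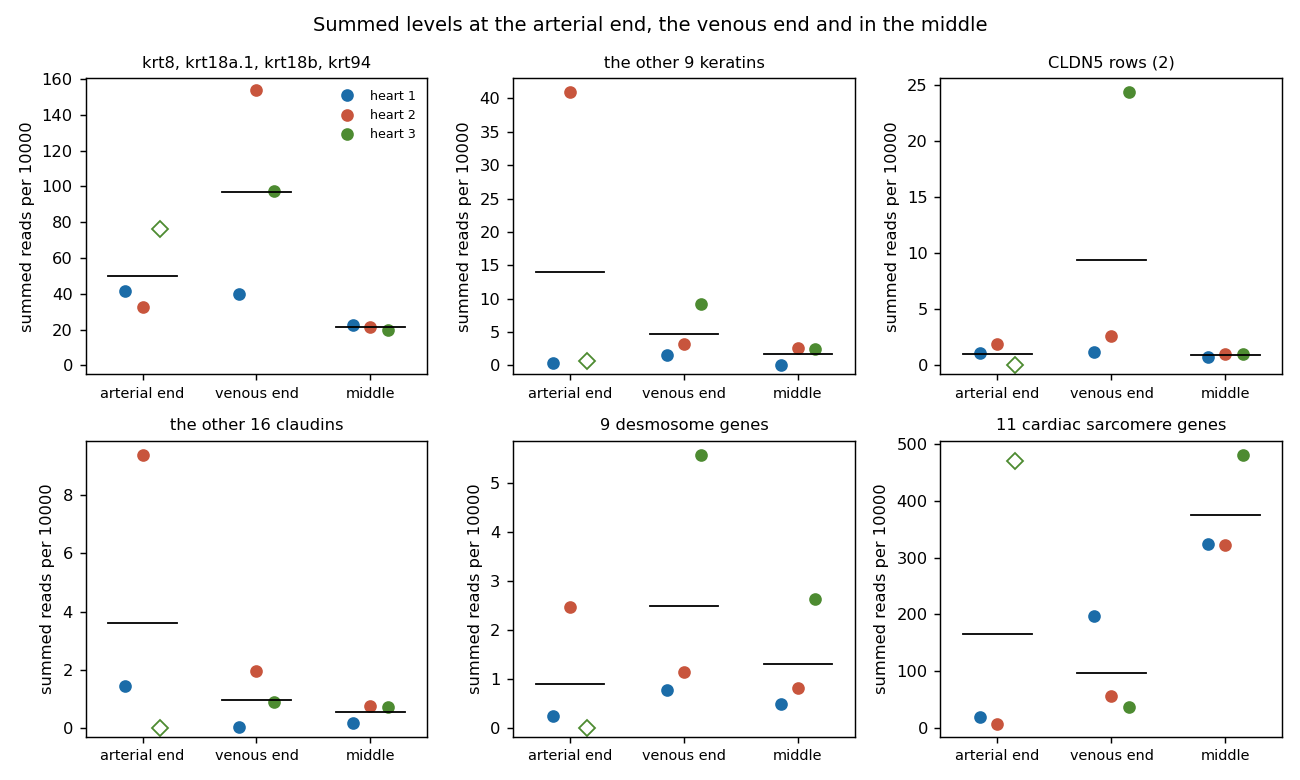
Summed reads per 10000 of 5 groups of members and of 11 cardiac sarcomere genes at the arterial end, the venous end and in the middle, with a point for each heart, a black line for the mean of the 3 hearts and an open diamond for the shallow arterial end of heart 3 (14700 reads). The sum of the 4 keratins krt8, krt18a.1, krt18b and krt94 is above all 3 middles at both ends, which does not hold for each keratin alone. Its arterial value in heart 3 comes from krt94 alone. The other 9 keratins (41.0) and the other 16 claudins (9.37) have their highest value at the arterial end of heart 2.

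The 9 desmosome genes were sparse and placed differently. Their sum was 0.25, 2.47 and 0 reads per 10000 at the arterial end, 0.779, 1.15 and 5.58 at the venous end, and 0.486, 0.824 and 2.63 in the middle of hearts 1, 2 and 3. The regions overlap, and the order of hearts differs from that of the keratins.

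Desmoplakin, which links desmosomes to filaments and is also part of cardiomyocyte junctions, had 2 rows. The more read row (DSP, ENSDARG00000022309) had 0.11, 0.755 and 0 reads per 10000 at the arterial end, 0.26, 0.983 and 2.29 at the venous end, and 0.172, 0.645 and 0.674 in the middle. Each heart was higher at its venous end than in its middle as a whole. The ratios were 1.51 (0.692 to 2.96), 1.52 (0.99 to 2.33) and 3.4 (2.53 to 4.52), and only that of heart 3 is beyond counting error. The atrium proper of hearts 1 and 3 (0.596 and 2.88) and the ventricle of heart 2 (1.28) were above those venous ends. With the chambers alone as the middle, the middle levels were 0.231, 1.01 and 1.96, so heart 2 was not higher. Under narrower windows the venous ends of hearts 2 and 3 had 0. The other row (DSP, ENSDARG00000076673) had 124 reads in all, of which 110 were in the middle of heart 3.

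The desmocollin dsc2l (ENSDARG00000039677) was lower at the arterial end, with 0.0988, 0.103 and 0 per 10000, than in the middle, with 0.235, 0.179 and 0.51. At the venous end it had 0.519, 0 and 3.04 per 10000, so hearts 1 and 3 were higher there and heart 2 was not. It was the single member lower at the arterial end than in the middle in all 3 hearts (2.44% of 41 members, against 11.5% of 13835 genes), and heart 3 enters that count with 0 of 14700 reads. Genes with no read in the middle of a heart could not enter it.

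The plakophilin pkp3a (ENSDARG00000051861), a plaque protein of epithelial desmosomes, had 0.0291, 0.93 and 0 per 10000 at the arterial end, 0, 0 and 0.251 at the venous end, and 0, 0 and 0.838 in the middle. Its reads in heart 3 lay mainly in a single ventricular section with 169 reads. The desmoglein dsg2.1 had 138 reads, all at the arterial end of heart 2. The cardiac plakophilin pkp2 had 14 reads in all, too few to place. PKP1, PKP4 and PKP3 had 84, 53 and 38 reads in all.

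The distribution of reads within a heart can be set against that of all genes. In heart 2, 22 of the 34 members with at least 10 reads (64.7%) had at least 90% of their reads at the arterial end, against 37.3% of all such genes. In heart 1 the share was 6 of 21 members (28.6%), against 11.1% of all genes. In heart 3 only krt18b and krt97 of 21 members had at least 90% of their reads at the venous end, 9.52% of them against 5.93% of all genes. The members' share was above that of all genes in these 3 counts, and the shares were not tested. A member or any other gene could reach 10 reads through the counted end alone, as epcam did in heart 2. The shares are therefore descriptions and give no independent support. The count of heart 3 rests on 2 genes, and krt97 had no read there in a section of at least 10000 reads. The end counted was the arterial end in hearts 1 and 2 and the venous end in heart 3. At the opposite ends 0 of 21, 0 of 34 and 0 of 21 members of hearts 1, 2 and 3 reached 90%. For these the share of all genes was not computed, so members and genes at large cannot be compared there.

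Of 41 members, 5 (12.2%) were higher at the venous end than in the middle of the same heart in all 3 hearts, against 3.64% of 13835 genes: krt8, krt18a.1, krt18b, krt94 and the more read DSP row. For the 4 keratins (9.76%) the venous ends did not overlap the middles, against 1.79% of all genes. Narrower windows left 2 of them, krt8 and krt18a.1, against 0.708% of all genes, and the chambers alone as the middle left 3, without krt94, against 1.81% of all genes. The arterial end was higher in all 3 hearts for 1 member, against 0.983% of all genes, and no member was higher there without overlap, against 0.571%. No member was lower at the venous end in all 3 hearts, against 13.1% of all genes. A member or any other gene with 0 reads in the middle of a heart, such as epcam and cldn7b, could not enter that count. In hearts 1 and 2 alone 6 members (14.6%) were higher at the venous end, against 9.97% of all genes. In the same 2 hearts 13 members (31.7%) were higher at the arterial end, against 33.1% of all genes. The members were thus about as often higher at the arterial ends of hearts 1 and 2 as genes at large.

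Between the ends, krt18a.1 and the more read DSP row (4.88% of 41 members) were lower at the arterial than at the venous end in all 3 hearts, against 3.67% of all genes, in each case with 0 reads at the arterial end of heart 3. No member was higher at the arterial end in all 3 hearts, against 0.896% of all genes, or higher without overlap, against 0.557%. In hearts 1 and 2 alone 8 members (19.5%), krt4, krt5, krt15, pkp3a and 4 claudins, were higher at the arterial end, against 33.6% of all genes. The keratin krt8 was not placed alike, with 22.8 and 18.4 per 10000 at the arterial end, against 20.1 and 94.8 at the venous end of hearts 1 and 2.

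The regions were then compared with limma-voom over 9 summed profiles, 3 regions of 3 hearts, with the heart as a block. Only 16 members, 8 keratins, 5 claudins and 3 desmosome genes, passed the filter on low counts, among 6526 genes tested, which leaves out most claudins and epcam. No member passed an adjusted p of 0.05 (Benjamini-Hochberg over all genes tested) in any comparison, against 0.383% of all genes for the arterial end against the middle, 0.0613% for the venous end against the middle and 0.0% for the arterial against the venous end. An unadjusted p under 0.05 was reached by 1 member in each: cldn7b, krt18b and krt92 in that order, against 9.99%, 17.0% and 13% of all genes. With limma on log2(reads per 10000 + 0.1) the count of members was also 0 in each.

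The fitted log2 fold change for the arterial end against the middle was 6.81 ± 1.78 (SE) for cldn7b, with an adjusted p of 0.0635 in limma-voom. For krt4 it was 1.65 ± 1.51 with an adjusted p of 0.892. For krt8 and krt18a.1 it was -0.9 ± 1.26 and -0.23 ± 1.3, below 0 although hearts 1 and 2 were both higher at the arterial end. Without heart 3, where both had 0 reads, the values were 0.45 ± 0.3 and 0.8 ± 0.36. Since cldn7b has no read in the middle, the size of its fitted value depends on the prior count.

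For the venous end against the middle, the fitted log2 fold change was 1.43 ± 1.18 (SE) for krt8 with an adjusted p of 0.559, and 1.91 ± 1.22 for krt18a.1 with an adjusted p of 0.429. It was 4.68 ± 1.55 for krt18b (adjusted p = 0.149) and 0.13 ± 1.17 for krt94 (adjusted p = 0.971), all from limma-voom. The median of all genes tested was -1.21 in this comparison, and all 16 members were above it, with a median of 0.3 and 11 above 0. Median-ratio size factors moved the all-gene median to -0.29. For the arterial end against the middle the members' median was 1.34, against -0.2 for all genes, and 10 of 16 members were above the all-gene median. Because a member could pass the filter through the region where it is high, these medians are descriptions.

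**Figure D4:**
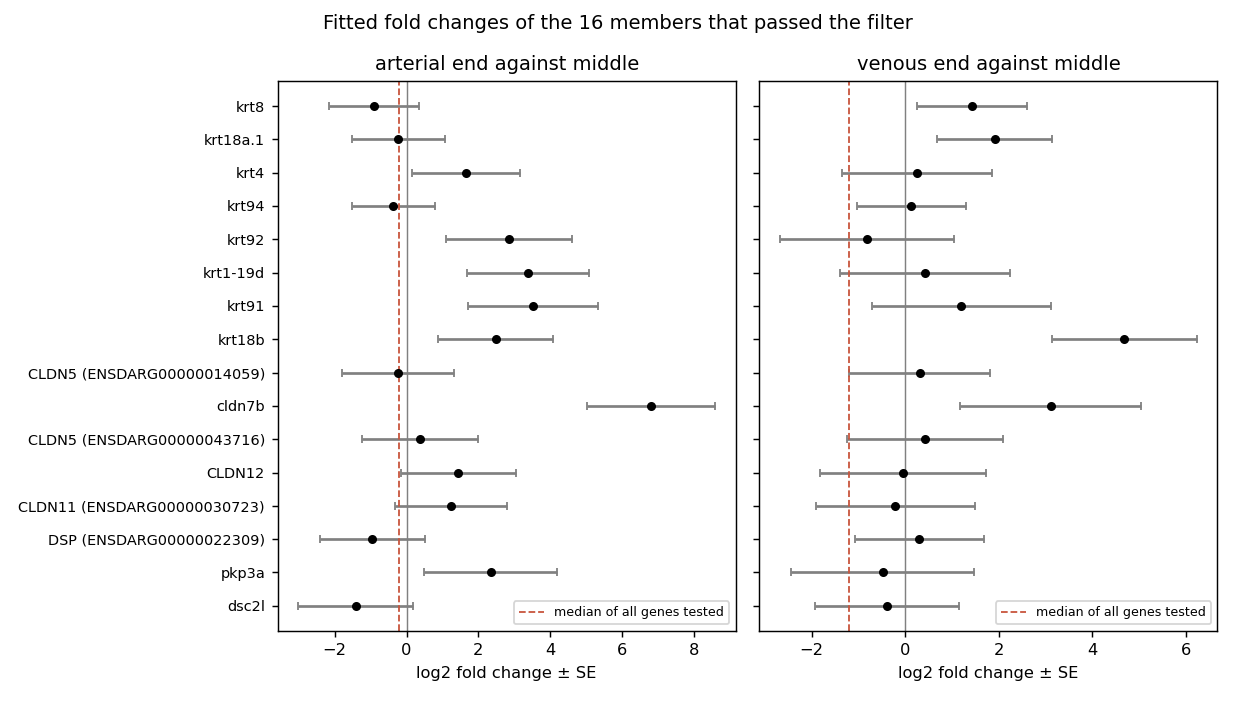
Fitted log2 fold changes (points) with their standard errors (bars) for the 16 members that passed the filter, for the arterial end against the middle (left) and the venous end against the middle (right), with a grey line at 0 and a dashed line at the median of all 6526 genes tested (-0.2 and -1.21). The points for cldn7b at the arterial end (6.81) and krt18b at the venous end (4.68) are farthest to the right, and no member passed an adjusted p of 0.05.

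The calls changed without heart 3. Then 3 members passed for the arterial end against the middle in limma-voom, against 5.11% of all genes: krt4 (3.83 ± 0.77, adjusted p = 0.00106), cldn7b (7.46 ± 1.96, adjusted p = 0.016) and cldnb (6.96 ± 2.01, adjusted p = 0.0306). Both claudins had no read in any middle and could pass the filter only through the ends, so their calls give no independent support. With heart 3 kept in, cldn7b also passed under narrower windows (6.83 ± 1.73, adjusted p = 0.0232), without the most read gene (6.48 ± 1.94, adjusted p = 0.0476) and with no filter (6.72 ± 1.66, adjusted p = 0.0183), where cldnb passed too. Of all genes 2.56%, 1.82% and 0.909% passed in that order, and the same limit on support holds for these calls. Again without heart 3, krt8 passed in limma-voom for the venous end against the middle (1.59 ± 0.36, adjusted p = 0.0228), against 0.424% of all genes. In that same fit without heart 3, krt4 was higher at the arterial than at the venous end (3.93 ± 1.04, adjusted p = 0.0249). There krt8 was lower (-1.14 ± 0.33, adjusted p = 0.0475), against 3.3% of all genes passing between the ends. With sections under 10000 reads left out, which leaves heart 3 with no arterial end, krt4 (4.12 ± 0.94, adjusted p = 0.0241) and cldn7b (7.07 ± 1.69, adjusted p = 0.0318) passed for the arterial end, against 1.88% of all genes. Without heart 1 or without heart 2 no member passed in any comparison.

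Markers of tissues that could cover or adjoin the heart were read beside the members. A skin panel of 6 genes, without members, summed to 1.49, 33.7 and 8.84 per 10000 at the arterial end, 6.64, 3.62 and 17.6 at the venous end, and 6.83, 8.1 and 7.14 in the middle of hearts 1, 2 and 3. The arterial end of heart 2 held all 6, including TP63, the master regulator of basal epidermis, at 0.857 per 10000, and evpla, an envoplakin of the cell envelope, at 3.44. TP63 was at 0 in the arterial ends of hearts 1 and 3. In every region most of the panel was icn, a calcium-binding protein of fish skin. At the arterial end icn had 1.41, 26.8 and 8.84 per 10000, and at the venous end 6.64, 2.81 and 17.3. Its levels in the middle were 6.78, 8.08 and 6.93 per 10000. The part of attached skin in the levels of krt4, epcam and the claudins in heart 2 was not tested.

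A panel of 9 genes of proepicardium, epicardium and pericardium summed to 8.65, 5.46 and 6.12 per 10000 at the arterial end, 3.14, 14.1 and 5.27 at the venous end, and 5.1, 5.09 and 4.64 in the middle. Of these sums HAND2 made up 6.23, 4.25 and 6.12 at the arterial end and 2.28, 5.54 and 3.73 at the venous end. In the middle it made up 4.5, 4.51 and 4.04. In the venous end of heart 2 all 9 were read. Among them, TBX18 and jam2b had 1.58 each, TCF21 had 0.432 and the matrix gene LUM had 1.99. TBX18, jam2b and TCF21, markers of the epicardial lineage, were at 0 in the venous ends of hearts 1 and 3. At the arterial end of heart 1 they had 0.953, 0.128 and 0.0814. In the venous ends of hearts 1 and 3 BNC2 had 0.623 and 1.19, against 0.0978 and 0.443 in the middle. There WT1 had 0 and 0.345, against 0 and 0.0798. ALDH1A2 went the other way, with 0.234, 0.528 and 0 at the venous ends of hearts 1, 2 and 3, against 0.494, 0.573 and 0 in the middle. The part of these cells in the keratin levels was not tested. A panel of 9 mesenchyme and matrix genes summed to 2.15, 45.3 and 3.2 per 10000 at the venous end, against 4.07, 7.86 and 1.72 in the middle. A panel of 9 smooth muscle and outflow tract genes was higher at all 3 venous ends without overlap, at 16.1, 13.1 and 9.09 per 10000, against 3.68, 4.13 and 7.34 in the middle. Most of it was acta2, smooth muscle actin, at 12, 6.67 and 2.98 per 10000, against 1.63, 1.64 and 6.18, and a row matched to TAGLN, another smooth muscle gene. In heart 3 acta2 was thus lower at the venous end. The part of these panels in the keratin levels was not tested. The 5 pharyngeal endoderm and thyroid genes had 0 reads in every venous end and 1.16 and 1.07 per 10000 in the arterial ends of hearts 1 and 2.

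Partners of the members were followed in lists of related genes. The list of epithelial transcription factors has 15 genes, with the splicing regulators ESRP1 and ESRP2 among them. It summed to 0.727, 2.62 and 0 per 10000 at the arterial end, 0, 0.959 and 0.0313 at the venous end, and 0.0476, 0 and 0.412 in the middle. ESRP2 made up 0.564 of the 0.727 at the arterial end of heart 1. All 15 had reads at the arterial end of heart 2 and 3 of them at that of heart 1, and none reached the level to be tested. The 17 tight junction partners, such as scaffold proteins that claudins bind, had 3.25, 4.17 and 0 per 10000 at the arterial end and 3.32, 5.3 and 5.58 at the venous end, against 3.13, 2.46 and 4.09 in the middle. The 9 desmosome and adherens junction partners had 16, 14.8 and 7.48 per 10000 at the arterial end and 14, 15.1 and 30.8 at the venous end, against 9.07, 13.9 and 27.1 in the middle. These partners include cdh5, which is also in the endothelial panel. In heart 3 cdh5 made up 23.4 of the 30.8 at the venous end and 5.88 of the 27.1 in the middle. The higher venous sum of heart 3 thus rests on cdh5. The 12 keratinization and intermediate filament partners had 4.59, 36.6 and 8.84 per 10000 at the arterial end and 10.4, 11.8 and 21.1 at the venous end, against 13.7, 19.9 and 20.5 in the middle. This list shares icn with the skin panel. At the arterial end icn made up 26.8 of the 36.6 in heart 2 and all of the 8.84 in heart 3. The list also holds DES, the muscle filament gene desmin. Its more read row made up 5.88, 8.99 and 10.7 of the sums in the middle, against 0.773, 0.243 and 0 at the arterial end. The 12 other epithelial surface genes had 6.26, 24.7 and 1.36 at the arterial end and 12.7, 78.6 and 10.9 at the venous end, against 9.6, 19.9 and 5.89 in the middle, so every heart was higher at its venous end. In heart 2 ANXA2, a membrane-binding annexin, made up 55.2 of the 78.6 per 10000. In heart 1 pfn1 made up 6.67 of the 12.7 at the venous end and 2.7 of the 9.6 in the middle. The higher venous sum of heart 1 thus rests on pfn1. The 6 genes of basal skin and basement membrane attachment had 0.0814, 2.19 and 0 at the arterial end and 1.3, 1.15 and 0 at the venous end, against 0.632, 0.74 and 1.23 in the middle. No gene of these 6 lists passed the test in any comparison in limma-voom, where 0 to 7 genes of each were tested. In the same fits 5 genes of the cardiac sarcomere panel were lower at the arterial end and 2 at the venous end. Among these calls are myh6 at the arterial end and vmhc at the venous end, which were used to place hearts 2 and 3. The calls of these placing genes therefore give no independent support.

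The genes with a profile most like that of the summed keratins were sought among 8112 genes by Spearman's rho over sections with at least 10000 reads, averaged over the 3 hearts. Of these, the 6786 genes read in all hearts could be ranked. The most alike were FN1, the matrix protein fibronectin (0.43, 0.72 and 0.5 in hearts 1, 2 and 3), and the collagen genes COL12A1 and COL6A2, each with a mean rho of 0.49. FN1 had 0, 15.4 and 10.6 per 10000 at the venous end, against 0.0159, 0.275 and 0 in the middle, and COL6A2 had 0, 28.7 and 3.92, against 0.124, 0 and 0. Both were high at the venous ends of hearts 2 and 3 and at 0 in that of heart 1. COL12A1 had 0, 3.52 and 0.219 per 10000 at the venous end, and 2.98, 0.777 and 0 at the arterial end. Since these genes were picked for following the keratins, a pattern shared with them is no separate support.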

How the data were processed

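A table for each of the 3 hearts was used as deposited. According to the methods, the authors made it by CEL-seq of barcoded sections and mapping to Zv9 gene models (BWA 0.6.2 in the submitters' processing notes). Its values are whole read counts per gene and section, recorded here as an other unit because the layout of the deposited tables could not be checked as counts, so the planned count model was replaced by limma-voom. Molecular identifiers are not described in the sources used here. Columns outside the labelled sections (56, 48 and 67) and spike-in rows were not used, and sections 17 to 24 of heart 1 were put back in order as its label states.

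Ensembl IDs of 80.5% of 16023 gene rows had a name. Members and lists were chosen with earlier results of these data known. The genes named by rule were the 5 most read keratins, claudins and desmosome genes each, epcam and cdh1. Counts were summed over 3 regions per heart and fitted in limma 3.58.1 (R 4.3.3) with TMM factors and the heart as a block, since regions of a heart come from 1 animal. A gene needed 10 reads at the median depth in 3 sums and 15 reads in all. The p-values weigh a difference between regions against how such differences vary between these 3 hearts, with the spread moderated over genes. Counting intervals are 95% and floors are 3 reads. Scripts were tested on simulated data.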

Additional observations from a re-analysis of the deposited data

How the results depend on the processing

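The 3 hearts and the thin arterial end of heart 3 limit what the fits can show, and depth limits most claudins and desmosome genes to a few reads. Leaving out each heart in turn gave 2 to 337 genes past the test for the arterial end against the middle, 2 to 28 for the venous end against the middle and 0 to 218 for the arterial against the venous end, with 0 to 3, 0 to 1 and 0 to 2 members. In the same order of comparisons, genes past the test were 2, 0 and 4 with median-ratio size factors, 144, 91 and 6 with no filter, 159, 2 and 2 with narrower windows, 139, 90 and 93 without sections under 10000 reads, and 116, 14 and 5 without the most read gene. For the arterial and the venous end against the middle they were 7 and 10 with placement by heart length, and without the heart as a block 1 and 1, where the pairing by heart changed no member's call. They were 5 at the arterial end and 1 between the ends on log2 values, 1 at the venous end and 2 between the ends with the chambers alone, and 8 and 16 for these with placement by raw reads. Size factors and raw-read placement were added after seeing the data. Members past the test at the arterial end were 2 with no filter (cldn7b, adjusted p = 0.0183, and cldnb, 0.0328, in limma-voom), 1 with narrower windows (cldn7b), 2 without shallow sections and 1 without the most read gene (cldn7b). In the same order of settings 0.909%, 2.56%, 1.88% and 1.82% of all genes passed. The keratin arterial end over middle ratio, 2.79 ± 0.83 (SD, n = 3), was 1.71 with placement by raw reads, where heart 2 had 0.607. The DESeq2 alternative was not run, and without shallow sections no class ratio exists at the arterial end, where heart 3 has no section left.

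Of 351 recomputed log2 fold changes of 10 named members, 297 kept direction and side of the threshold, 10 passed it only under the alternative and 44 changed sign. No member was called with the main settings. The cause was not tested. For the arterial end against the middle, leaving out each heart in turn gave -3.34 to 0.45 for krt8, -2.54 to 0.8 for krt18a.1, -0.13 to 3.83 for krt4, -0.94 to 0.53 for krt94 and -2.28 to 0.15 for CLDN5 (ENSDARG00000014059). Without shallow sections krt8, krt18a.1 and CLDN5 were at 0.24, 0.8 and 1.43, with size factors krt18a.1 and CLDN5 at 0.03 and 0.06, with raw-read placement krt4 and pkp3a at -0.66 and -1.06, and on log2 values krt94 at 0.66. For the venous end against the middle, leaving out hearts gave -0.25 to 0.41 for krt4, -0.2 to 0.58 for krt94, -2.02 to 2.07 for CLDN5 and -1.31 to 1.19 for dsc2l, and krt92 was at 0.79 without heart 3. Other values there were -0.07 and -0.04 for krt4 and krt94 with no filter, -0.8, -3.03 and -3.48 for krt94, CLDN5 and DSP (ENSDARG00000022309) with narrower windows, -0.18, -0.09 and -0.3 for krt4, CLDN5 and DSP with the chambers alone, and -1.83, -0.37 and 0.51 for krt4, CLDN5 and dsc2l with raw-read placement. They were 0.09, 0.4 and 0.58 for krt92, pkp3a and dsc2l with size factors, -0.14 and -0.06 for krt94 without shallow sections and without the most read gene, 0.59 for dsc2l on log2 values and 0.02 for pkp3a with no replicate block. Between the ends, leaving out hearts gave -1.21 to 0.74 for krt94, -4.35 to 2.17 for CLDN5 and -3.52 to 0.09 for dsc2l. There krt94, CLDN5 and DSP were at 0.0, 2.44 and 2.27 with narrower windows and krt4 at -0.24 on log2 values.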

Other observations

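The 4 rows that share only the first letters of a family name are values of unrelated genes. KRTCAP2, a subunit of the enzyme that attaches sugar chains to proteins, had 2.08, 3.32 and 0 reads per 10000 at the arterial end, 1.95, 0.599 and 0.345 at the venous end, and 0.803, 1.74 and 1.6 in the middle of hearts 1, 2 and 3. It was higher at the venous end than in the middle in heart 1 and lower in hearts 2 and 3. DSCC1, DSCAM and CLDND1 had 111, 29 and 33 reads in all.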
